A study of Mus musculus with 24 samples.

Results

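The 10 genes described here encode proteins that bring fatty acids into cells, carry them and activate them, and were found by symbol among 25385 genes of a mouse RNA-seq series. They are the lipase Lpl, the scavenger receptor Cd36, the transport proteins Slc27a1, Slc27a3 and Slc27a4, the fatty acid-binding proteins Fabp3, Fabp4 and Fabp5, and the long-chain acyl-CoA synthetases Acsl1 and Acsl4. The list was taken by gene name and not by measured value, though with earlier results of these data known. All 10 were present, 9 passed the filter on low values and were tested, and Slc27a3 did not.

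Long-chain fatty acids reach fat-storing cells mostly inside lipoproteins. Lpl, secreted and held at the vessel wall, frees them from triglyceride, and Cd36 and the Slc27a (FATP) proteins take part in their entry. Inside the cell FABP proteins bind them, and ACSL enzymes join them to coenzyme A, which commits them to storage or oxidation. Fabp4, also called aP2, is a classical adipocyte marker that macrophages and capillary endothelium express as well, Fabp5 is the epidermal form, and Fabp3 is the heart and muscle form.

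The cells were mesenchymal stem cells (MSC) from mouse bone marrow, stromal cells that can become osteoblasts or adipocytes, obtained from another laboratory, stored frozen and used at 10 passages or fewer in MEM alpha with 10% fetal bovine serum. They were adipogenic at day 7 (insulin at 5 µg/mL, indomethacin at 50 µM and dexamethasone at 0.1 µM), osteogenic at day 7 or 15 (beta-glycerophosphate at 10 mM and ascorbic acid at 50 µg/mL), or undifferentiated at day 0. Each of these 4 states was given VD3 (1,25(OH)2D3, the hormone form of vitamin D and ligand of the nuclear receptor Vdr) at 100 nM for 24 hours, or ethanol vehicle, with 3 libraries in each of the 8 groups. No label says that the 3 were separate cultures, so the p-values rest on a spread between libraries that may be technical. Values are RPKM, reads scaled to transcript length and library size. Differences are given on the log2(RPKM + 1) scale, on which those of low genes come out too small. The words rose, fell, higher and lower mark an adjusted p under 0.05 in limma over 21097 tested genes.

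Estimated depth was 7.13 to 46.1 M reads, and 3 reads on 1 kilobase corresponded to 0.065 to 0.421 RPKM. In the same 5 of the 6 day 0 libraries the median of 1497 olfactory, vomeronasal and taste receptor genes, taken here as background, was 3.39 to 4.93 RPKM. It was 0.456 RPKM in the remaining one, VD3 replicate 2, and 0.208 to 1.30 RPKM in the 18 differentiated libraries. The same 5 libraries were also the shallowest, each under the 11.65 M reads of the next, osteogenic day 7 vehicle replicate 3. Day 0 vehicle libraries had 8.49, 9.71 and 7.13 M reads, and day 0 VD3 replicate 2 had 38.32 M. Each comparison with day 0 vehicle thus also set shallow libraries against deeper ones, and the part of depth was not tested. This receptor background moved with each comparison to day 0, in which the median gene differed by -0.83 on adipogenic day 7, by -0.46 on osteogenic day 7 and by -0.55 on osteogenic day 15 on the log2 scale. Cell labels were set against marker genes. The summed level of 8 adipocyte markers was 6100 to 6655 RPKM in adipogenic vehicle libraries and 61.0 to 68.1 RPKM at day 0, although Lep, one of the 8, was at 0.185 ± 0.0330 RPKM in adipogenic cells (SD, n = 3). The summed 6 osteoblast markers were 492 to 518 and 655 to 731 RPKM on osteogenic days 7 and 15, 120 to 140 RPKM on adipogenic day 7 and 25.6 to 29.7 RPKM at day 0. Among cell types that also use these genes, 8 macrophage markers summed to 5.13 to 8.01 RPKM in adipogenic vehicle libraries and 14.5 to 17.9 RPKM at day 0. For 7 endothelial markers the sums were 1.27 to 1.93 and 8.92 to 11.6 RPKM. At day 0 (vehicle), 0 of the 8 macrophage and 0 of the 7 endothelial markers had means above the receptor background. Those day 0 sums were therefore not read as expression. In adipogenic vehicle cells 3 of the 8 and 0 of the 7 were above it.

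The first comparison asked what 7 days in adipogenic medium changed. On adipogenic day 7, 7 of the 9 tested genes rose and 1 fell against day 0 among vehicle libraries, where 78.6% of all tested genes changed (13.2% higher and 65.5% lower). Fabp4, Cd36 and Acsl1 rose most, by 8.78, 8.94 and 6.51 on the log2 scale, followed by Fabp5, Lpl, Slc27a1 and Slc27a4, while Fabp3 fell and Acsl4 differed little. The median of the 9 differences was 3.03, and that of all tested genes -0.83. In bulk RNA, more cells expressing a gene and more RNA per cell cannot be told apart. A comparison with day 0 also confounds the medium with the time in culture and with library depth.

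Lpl, the lipase, measured 1892, 2113 and 1793 RPKM in adipogenic vehicle libraries and 231, 239 and 236 RPKM at day 0. Every adipogenic library was far above every day 0 library, an 8.21-fold difference of means (log2 3.03 ± 0.08 SE, limma adjusted p = 1.6e-18). At day 0 Lpl had the highest level of the 10 genes.

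Cd36, a receptor that binds long-chain fatty acids and promotes their entry, was at 1392, 1264 and 1413 RPKM in adipogenic vehicle libraries, against 2.39, 1.10 and 1.97 RPKM at day 0. All 3 day 0 values were below the receptor background of their libraries, so no fold is given (log2 8.94 ± 0.23 SE, limma adjusted p = 1.2e-18). The authors' values list 5 transcripts under this symbol. One adipogenic vehicle library, replicate 1, had 98.7% of its Cd36 RPKM on a single transcript, while in the other 5 adipogenic libraries the largest transcript held 20.7 to 20.9%. The sums were 1264 to 1413 RPKM in all 6, so only the split between transcripts differed.

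**Figure D1:**
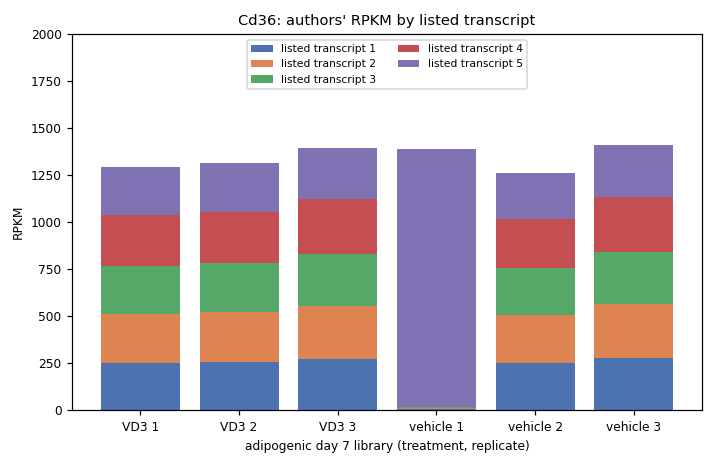
RPKM of the 5 listed Cd36 transcripts (stacked colours, in the order of the authors' files) in the 3 VD3 and 3 vehicle libraries of adipogenic day 7. Vehicle replicate 1 has 98.7% on one transcript, the other 5 libraries have nearly even splits, and the totals lie between 1264 and 1413 RPKM.

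Of the FATP transporters, which also have acyl-CoA synthetase activity, Slc27a1 had 8.89, 9.66 and 8.15 RPKM in adipogenic vehicle libraries, against 1.90, 2.69 and 2.76 RPKM at day 0, with no overlap (log2 1.53 ± 0.14 SE, limma adjusted p = 7.5e-09). Slc27a4 had 7.45, 7.33 and 6.22 RPKM, against 3.94, 5.24 and 3.19 RPKM at day 0, also with no overlap (log2 0.66 ± 0.14 SE, limma adjusted p = 0.00035). At day 0 Slc27a1 was under the receptor background and Slc27a4 close to it. Slc27a3 lay between 0 and 1.04 RPKM in all 24 libraries, with a highest group mean of 0.852 ± 0.0458 RPKM on osteogenic day 7 (vehicle, SD, n = 3), and no order of its levels is given.

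Fabp4 was the most abundant of the 10 genes, at 23560.5, 21905 and 22113 RPKM in adipogenic vehicle libraries, against 38.9, 56.2 and 57.7 RPKM at day 0. The 442-fold difference of means (log2 8.78 ± 0.18 SE, limma adjusted p = 4.4e-20) made it the third most abundant of all genes in each of the 3 adipogenic vehicle libraries, with 4.06% ± 0.105 of total RPKM (SD, n = 3). At day 0 it ranked between 1155 and 1725. Fabp5 followed with 1949, 1615 and 1449.8 RPKM in adipogenic libraries, against 91.4, 69.6 and 99.1 RPKM at day 0 (19.3-fold, log2 4.26 ± 0.18 SE, limma adjusted p = 1.2e-14). Both genes were separated between the groups by far more than the spread of their libraries. RefSeq lists a mouse pseudogene for each of Fabp3 and Fabp5, and how reads shared with them were counted is not given in the sources used here.

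Fabp3 went the other way, with 0.248, 0.251 and 1.55 RPKM in adipogenic vehicle libraries, against 4.79, 5.47 and 4.17 RPKM at day 0. The groups did not overlap (log2 -1.87 ± 0.26 SE, limma adjusted p = 3.4e-06). The day 0 values were close to the receptor background of those libraries, and with that background subtracted the difference was -0.47 and no longer passed (adjusted p = 0.30).

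Acsl1, the main synthetase of adipocytes, had 899.8, 808 and 859 RPKM in adipogenic vehicle libraries, against 9.03, 8.57 and 7.61 RPKM at day 0, a 102-fold difference of means (log2 6.51 ± 0.12 SE, limma adjusted p = 3.0e-21). Acsl4, which prefers arachidonic acid, had 30.4, 34.7 and 32.2 RPKM, against 31.2, 31.5 and 33.2 RPKM at day 0. The 2 groups overlapped (log2 0.02, 95% interval -0.15 to 0.18, adjusted p = 0.84). This near-zero value depended on the scaling and treatment: it was 0.63 (adjusted p = 0.00069) after median-ratio rescaling and -0.36 (adjusted p = 0.00068) between VD3-treated libraries. Of 3 Acsl4 transcripts listed, 2 were at 0 in all 24 libraries.

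**Figure D2:**
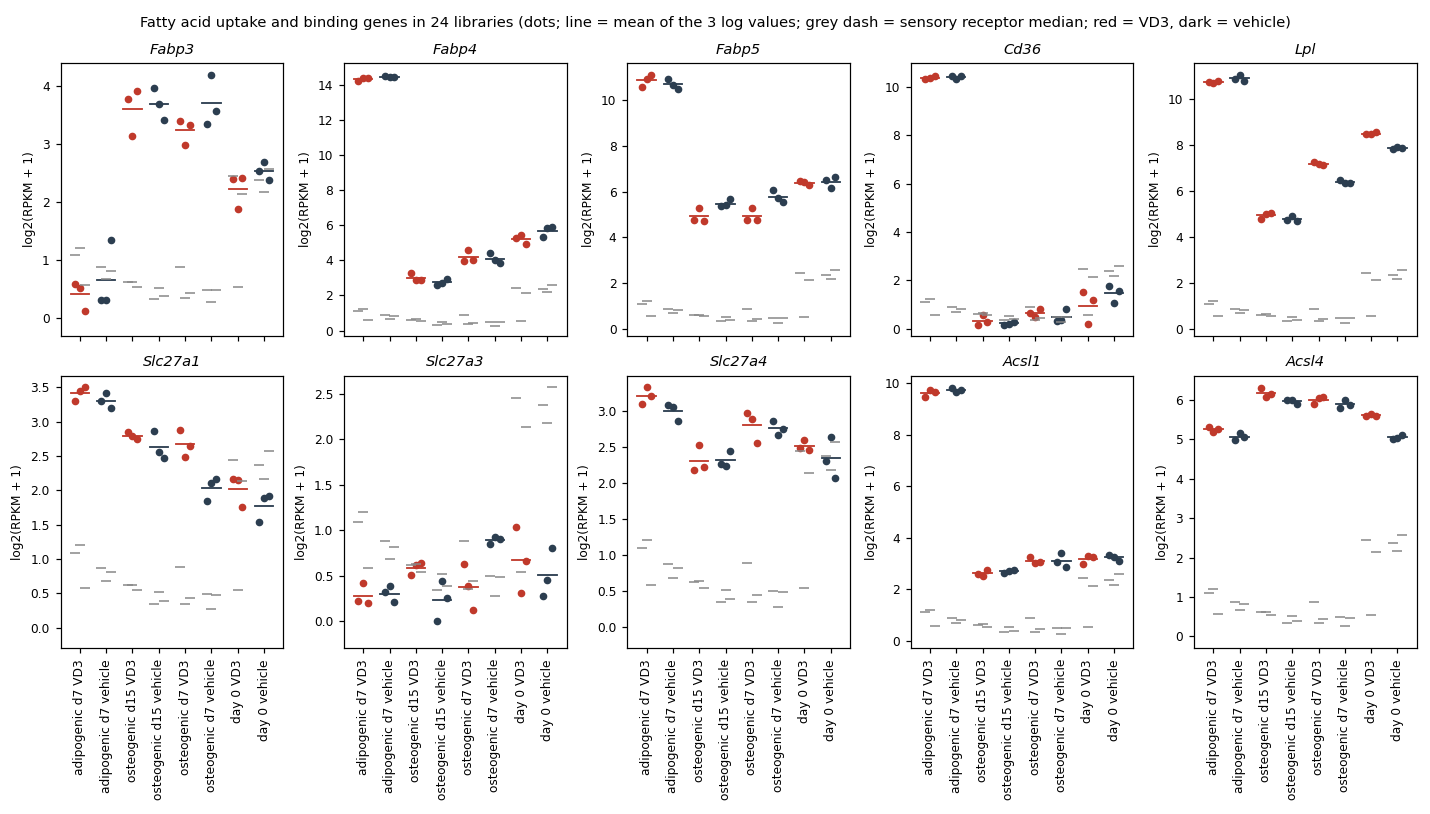
log2(RPKM + 1) of the 10 genes in each of 24 libraries (dots, 3 a group; red VD3, dark vehicle), with the mean of the log values (line) and each library's receptor background (grey dashes). Each panel has its own vertical scale. Fabp4, Fabp5, Cd36, Lpl and Acsl1 stand highest in adipogenic libraries, Fabp3 and Acsl4 in osteogenic ones, and Slc27a3 stays at or under 1.04 RPKM.

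Against osteogenic cells of the same day, 6 of 9 genes were higher in adipogenic cells and 2 lower, where 37.8% of all genes changed (12.4% higher and 25.4% lower). No day 0 library entered the difference itself, but all 24 libraries entered the estimate of spread and the filter. With only the libraries compared, 12904 genes were tested and 67.5% of them changed. Fabp4 (16.2 ± 3.68 RPKM in osteogenic cells, SD, n = 3) was 1390-fold higher in adipogenic cells (log2 10.38 ± 0.18 SE, limma adjusted p = 1.2e-21), Acsl1 (7.72 ± 1.64 RPKM) 111-fold, Fabp5 (54.6 ± 11.2 RPKM) 30.6-fold and Lpl (83.8 ± 3.40 RPKM) 23.1-fold. Slc27a1 was 2.86-fold higher, and Cd36 was at 0.236, 0.283 and 0.743 RPKM in osteogenic libraries. The 2 lower genes were Fabp3 (log2 -3.03 ± 0.26 SE, limma adjusted p = 1.7e-09) and Acsl4 (-0.82 ± 0.08 SE, adjusted p = 7.9e-09). Slc27a4 did not pass (0.24 ± 0.14 SE, adjusted p = 0.22), but passed as higher after median-ratio rescaling (0.42, adjusted p = 0.041) and between VD3-treated libraries (0.41, adjusted p = 0.024). The 8 calls for the other genes held under every one of the 17 alternatives fitted to this comparison.

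**Figure D3:**
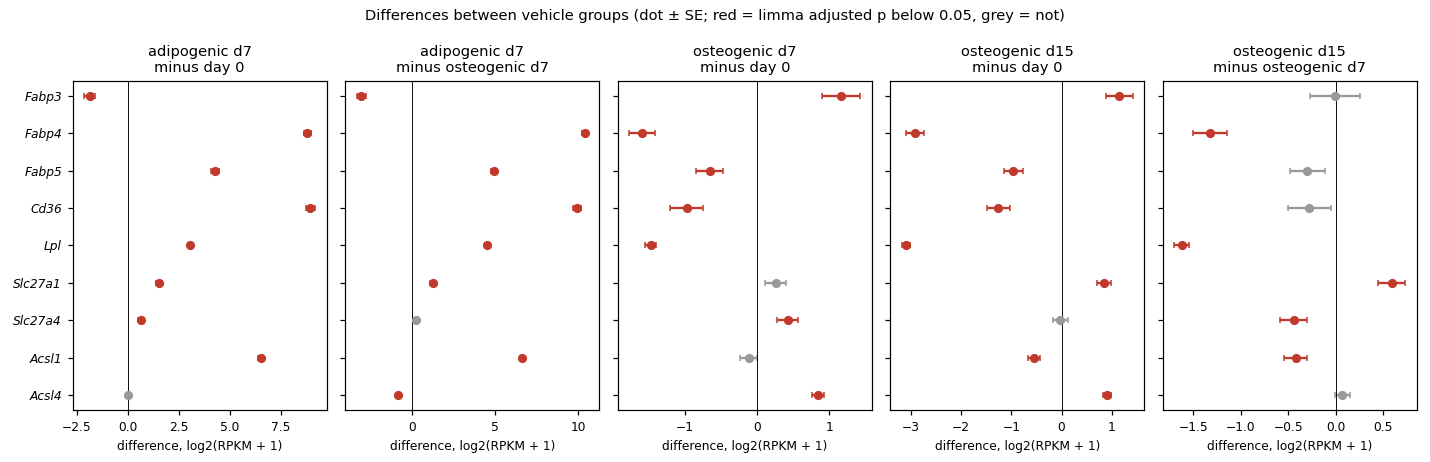
Differences on the log2(RPKM + 1) scale between vehicle groups for the 9 tested genes (dots, with SE bars; red where limma's adjusted p was under 0.05). Horizontal scales differ between the 5 panels. Adipogenic differences reach 10.38 for Fabp4, and osteogenic ones lie between -3.10 for Lpl and 1.16 for Fabp3.

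Promoters of 7 of the 10 genes, as 10 windows, were found in a RefSeq table on GRCm38.p6, a later build than the mm9 of the expression values. Fabp4, Fabp5 and Lpl had no entry. The 250 bases before an annotated start are shown for Cd36 and Acsl1, which rose together in adipogenic cells, and for Fabp3, which fell. Capitals mark matches to AGGTCA (the core sequence bound by nuclear receptors such as the fat cell factor Pparg with its partner), GGGCGG (the Sp1 type GC box) and CCAAT, each on either strand, and to TATAAA on the gene's own strand.
Cd36 (chr5:17835897-17836146, minus strand): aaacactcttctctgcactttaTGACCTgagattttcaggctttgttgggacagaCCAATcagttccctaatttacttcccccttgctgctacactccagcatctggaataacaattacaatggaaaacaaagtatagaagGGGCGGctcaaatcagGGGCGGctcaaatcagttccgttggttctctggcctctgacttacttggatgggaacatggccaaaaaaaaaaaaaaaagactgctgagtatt
Acsl1 (chr8:46470787-46471036, plus strand): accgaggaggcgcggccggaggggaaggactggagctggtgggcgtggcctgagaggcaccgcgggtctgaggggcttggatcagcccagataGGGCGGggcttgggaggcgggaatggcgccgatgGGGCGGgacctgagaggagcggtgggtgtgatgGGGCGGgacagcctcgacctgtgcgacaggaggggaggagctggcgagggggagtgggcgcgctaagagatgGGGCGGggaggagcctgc
Fabp3 (chr4:130308488-130308737, plus strand): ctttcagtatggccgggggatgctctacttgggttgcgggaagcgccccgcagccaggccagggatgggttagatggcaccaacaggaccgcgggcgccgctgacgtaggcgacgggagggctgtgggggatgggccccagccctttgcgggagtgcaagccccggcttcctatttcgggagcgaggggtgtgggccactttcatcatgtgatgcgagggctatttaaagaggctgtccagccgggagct
The Cd36 window held 1 AGGTCA match on the opposite strand, 1 CCAAT and 2 GGGCGG, at 43.2% GC. The Acsl1 window held 4 GGGCGG at 72% GC. A second Acsl1 window in the table, not printed, held 2 CCAAT and no GGGCGG at 48.4% GC. The Fabp3 window held none of the 4 motifs at 64.8% GC. Among 32851 promoter windows of this length, 14.0% had AGGTCA, 32.7% GGGCGG, 33.8% CCAAT and 7.59% TATAAA, and the median GC was 52.4%. A match is a string of letters and no evidence of binding.

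The second asked what osteogenic medium changed. Lpl and Fabp4 fell step by step over days 7 and 15, Fabp5 fell on both days, and Fabp3 and Acsl4 rose on both. On osteogenic day 7, 3 of 9 genes rose and 4 fell against day 0 (vehicle), where 64% of all genes changed (13.6% higher and 50.4% lower). On osteogenic day 15, 3 rose and 5 fell, where 70.9% changed (17.5% higher and 53.4% lower). The 4 and 5 falls among 9 genes were close to the share of all genes that fell. The median of the 9 differences was -0.12 on day 7 and -0.54 on day 15, against -0.46 and -0.55 over all tested genes.

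Lpl fell to 26.2, 28.8 and 24.8 RPKM on osteogenic day 15 and to 87.7, 82.2 and 81.6 RPKM on day 7, against 231, 239 and 236 RPKM at day 0. The 3 groups did not overlap, with differences to day 0 of -1.48 ± 0.08 SE (limma adjusted p = 6.7e-12) on day 7 and -3.10 ± 0.08 SE (adjusted p = 7.7e-18) on day 15. Fabp4 followed the same order, with 5.13, 5.60 and 6.66 RPKM on day 15 and 20.3, 15.2 and 13.1 RPKM on day 7, all under the day 0 range (-1.60 ± 0.18 SE, adjusted p = 7.7e-07, on day 7 and -2.92 ± 0.18 SE, adjusted p = 2.6e-11, on day 15). Both calls held in every one of the 18 alternatives on each day. The 8 adipocyte markers summed to 30.2 to 35.3 RPKM on day 7 and 9.18 to 11.6 RPKM on day 15, against 61.0 to 68.1 RPKM at day 0. Only 2 of the 8, Adipoq and Pparg, were above the receptor background at day 0. Adipoq averaged 26.4 RPKM at day 0, 12.1 RPKM on day 7 and 0.895 RPKM on day 15. For Pparg the means were 32.0, 19.1 and 7.74 RPKM. The part of fat-like cells in the fall of Lpl and Fabp4 was not tested.

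Fabp5 was at 67.0, 51.1 and 45.6 RPKM on day 7 (-0.66 ± 0.18 SE, limma adjusted p = 0.0035) and at 40.5, 41.2 and 49.7 RPKM on day 15 (-0.96 ± 0.18 SE, adjusted p = 0.00013), below the 69.6 to 99.1 RPKM of day 0. After median-ratio rescaling the day 7 difference was -0.24 and did not pass (adjusted p = 0.35). Cd36 also passed as lower, at 0.117, 0.153 and 0.201 RPKM on day 15 and 0.236, 0.283 and 0.743 RPKM on day 7. Day 0 had 1.10 to 2.39 RPKM, and all day 0 and day 15 values were under the receptor background of their libraries. On day 7 replicate 1 was under its background (0.406 RPKM), and replicates 2 and 3 were above theirs (0.208 and 0.394 RPKM). The Cd36 difference of -0.98 on day 7 turned to 0.18 with background subtracted and 0.17 with quantile normalization, and the day 15 call was lost under both. Acsl1 was at 5.17, 5.52 and 5.63 RPKM on day 15, against 9.03, 8.57 and 7.61 RPKM at day 0 (-0.54 ± 0.12 SE, adjusted p = 0.00038). That call was lost under both rescalings and turned to 0.27 with background subtracted. On day 7 it did not pass (-0.12, adjusted p = 0.38). It passed as lower without osteogenic replicate 2 (-0.27, adjusted p = 0.049) and as higher with background subtracted (0.70, adjusted p = 0.010).

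Fabp3 rose in osteogenic medium, to 9.13, 17.2 and 10.8 RPKM on day 7 and 14.5, 11.9 and 9.64 RPKM on day 15, against 4.79, 5.47 and 4.17 RPKM at day 0. All 6 osteogenic libraries were above all 3 at day 0 (1.16 ± 0.26 SE, limma adjusted p = 0.00072, on day 7 and 1.15 ± 0.26 SE, adjusted p = 0.00064, on day 15), and both calls held under all 18 alternatives. Of 7 markers of striated muscle, where Fabp3 is the main form, the sum was 0.912 to 2.02 RPKM on day 7 and 0.521 to 1.54 RPKM on day 15, against 2.15 to 9.16 RPKM at day 0. Means above the receptor background were found for 2 of the 7 on day 7, 0 on day 15 and 0 at day 0.

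Acsl4 rose as well, to 54.6, 62.8 and 57.0 RPKM on day 7 and 63.0, 62.2 and 57.9 RPKM on day 15, against 31.2, 31.5 and 33.2 RPKM at day 0, with no overlap (0.84 ± 0.08 SE, limma adjusted p = 5.4e-08, and 0.91 ± 0.08 SE, adjusted p = 6.5e-09). Between VD3-treated libraries, with the low-background replicate 2 alone standing for day 0, the day 7 difference was 0.36 and did not pass (adjusted p = 0.061). Slc27a1 had 6.24, 4.87 and 4.53 RPKM on day 15, against 1.90, 2.69 and 2.76 RPKM at day 0 (0.85 ± 0.14 SE, adjusted p = 4.5e-05), and on day 7 it overlapped with day 0 (0.26 ± 0.14 SE, adjusted p = 0.12). It passed as higher on day 7 under both rescalings, with background subtracted and between VD3-treated libraries. Slc27a4 was at 6.26, 5.34 and 5.73 RPKM on day 7 (0.42 ± 0.14 SE, adjusted p = 0.013). Without day 0 replicate 3 its adjusted p was 0.0995, without osteogenic replicate 1 it was 0.053, and between VD3-treated libraries 0.097. On day 15 Slc27a4 overlapped with day 0 (-0.02, adjusted p = 0.89), although it passed as higher with quantile normalization (0.78, adjusted p = 0.0042) and with background subtracted (1.73, adjusted p = 0.00055).

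Between osteogenic days 15 and 7, 1 gene was higher and 4 lower on day 15, where 13.3% of all genes changed (6.87% higher and 6.47% lower). Lpl (-1.62 ± 0.08 SE, limma adjusted p = 3.0e-12) and Fabp4 (-1.32 ± 0.18 SE, adjusted p = 1.5e-05) passed in all 17 alternatives. The other calls were narrow. Slc27a1 was 0.59 higher (adjusted p = 0.0069, or 0.05035 without day 15 replicate 1 and 0.11 with quantile normalization), but only 0.12 between VD3-treated libraries (adjusted p = 0.77). Acsl1 was 0.42 lower (adjusted p = 0.017, or 0.063 without day 15 replicate 1 and 0.15 without day 7 replicate 2), and Slc27a4 0.44 lower (adjusted p = 0.039, or 0.055 to 0.14 without any one of the 6 libraries but day 15 replicate 3). All 3 of these calls were lost with quantile normalization and with background subtracted (adjusted p = 0.11 to 0.56). Fabp3, Fabp5, Cd36 and Acsl4 did not pass.

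RPKM is per length, so members of a family can be set side by side. Among Fabp3, Fabp4 and Fabp5, Fabp4 held 93.1% ± 0.741 of their summed RPKM in adipogenic vehicle libraries, against 35.8% ± 7.00 at day 0 (SD, n = 3). Of these 3, Fabp5 led elsewhere, with 65.4% ± 4.14 and 71.0% ± 4.0 on osteogenic days 7 and 15 and 60.7% ± 7.34 at day 0. Fabp3 held 15.2% ± 5.56 and 19.7% ± 4.75 on osteogenic days 7 and 15, and 3.43% ± 0.792 at day 0. Over the 5 ACSL genes listed (Acsl1, Acsl3, Acsl4, Acsl5 and Acsl6), Acsl1 held 91.1% ± 0.569 in adipogenic vehicle libraries, 5.08% ± 0.979 and 4.43% ± 0.265 on osteogenic days 7 and 15, and 8.56% ± 0.956 at day 0. Acsl4 held 3.46% ± 0.400 in adipogenic vehicle libraries, 38.2% ± 1.78 and 49.7% ± 3.21 on osteogenic days 7 and 15, and 32.5% ± 0.483 at day 0. Acsl3 had the largest mean share on osteogenic day 7 (43.5% ± 2.25) and at day 0 (42.0% ± 1.10). The 10 genes together took up 5.11% ± 0.130 of total RPKM in adipogenic vehicle libraries, 0.0382% ± 0.00242 on osteogenic day 7, 0.0249% ± 0.000669 on osteogenic day 15 and 0.0584% ± 0.00213 at day 0.

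**Figure D4:**
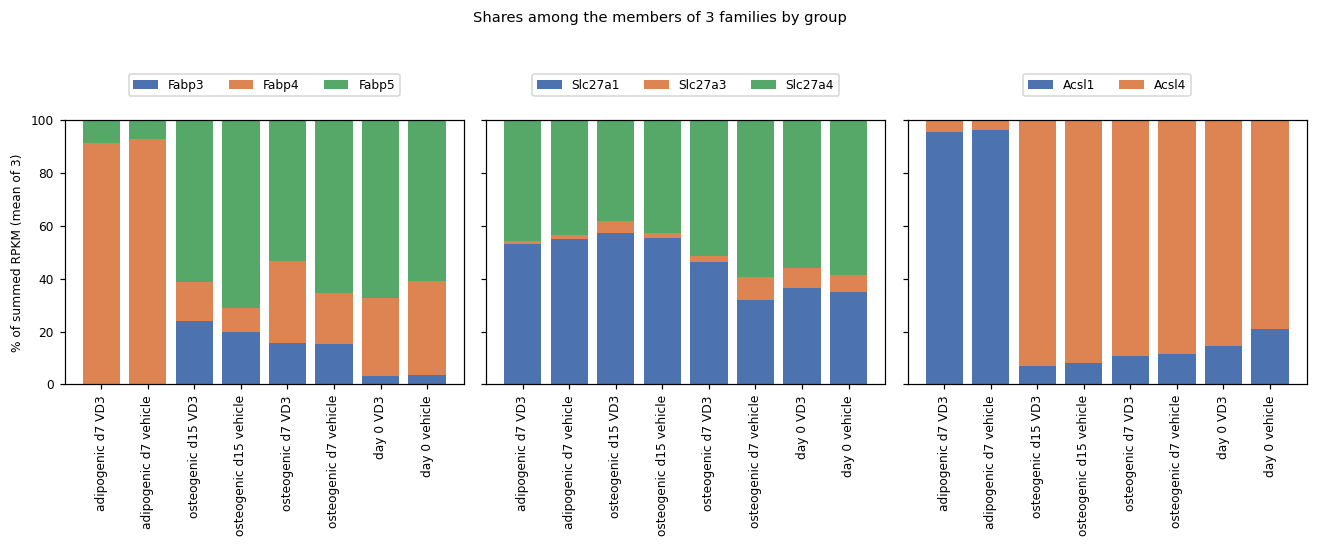
Percent of the summed RPKM of the members shown that each holds (stacked bars, mean of 3 libraries) in the 8 groups; other genes of the families are not in these sums. In adipogenic vehicle cells Fabp4 makes up 93.1% of its 3 genes and Acsl1 96.3% of Acsl1 and Acsl4, and outside the adipogenic groups Fabp5 and Acsl4 are the largest parts shown.

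The VD3 comparisons asked what 24 hours of hormone did in each state. Lpl was higher after VD3 in undifferentiated and osteogenic day 7 cells, Acsl4 in undifferentiated cells and Slc27a1 in osteogenic day 7 cells, while Fabp5 was lower in osteogenic day 7 cells. At day 0, 2 of 9 genes rose and 0 fell, where 15% of all genes changed (3.98% higher and 11% lower). On osteogenic day 7, 2 rose and 1 fell, where 5.26% changed (2.91% higher and 2.35% lower). On osteogenic day 15 and adipogenic day 7, 0 of 9 passed limma's adjusted threshold, where 0.773% and 2.08% of all genes changed. Unadjusted p was under 0.05 for 2 and 1 of the 9, and plain empirical Bayes also called 0.

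Lpl at day 0 measured 356, 359 and 380 RPKM with VD3 and 231, 239 and 236 RPKM with vehicle. Every VD3 library was above every vehicle library (1.55-fold, log2 0.63 ± 0.08 SE, limma adjusted p = 7.1e-06), and VD3 replicate 2, the day 0 library with low receptor background, was at 359 RPKM. On osteogenic day 7 it measured 153, 145 and 139 RPKM with VD3 and 87.7, 82.2 and 81.6 RPKM with vehicle (1.74-fold, log2 0.79 ± 0.08 SE, adjusted p = 5.4e-07). Both calls held in all 16 alternatives. On osteogenic day 15 it measured 26.7, 31.0 and 32.2 RPKM with VD3 and 26.2, 28.8 and 24.8 RPKM with vehicle, which overlapped (0.16 ± 0.08 SE, adjusted p = 0.83). In adipogenic cells, where Lpl is most abundant, VD3 libraries had 1749.6, 1689 and 1770.1 RPKM and vehicle libraries 1892, 2113 and 1793 RPKM. These groups did not overlap, and the difference did not pass (-0.15 ± 0.08 SE, adjusted p = 0.76).

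The VD3 effect on Lpl differed between states when tested directly. It was 0.94 smaller on the log2 scale in adipogenic than in osteogenic day 7 cells (difference -0.94 ± 0.11 SE, limma adjusted p = 2.9e-05) and smaller in adipogenic than in undifferentiated cells (-0.78 ± 0.11 SE, adjusted p = 0.00019). It was also smaller on osteogenic day 15 than on day 7 (-0.62 ± 0.11 SE, adjusted p = 0.020), a call that was lost under several alternatives (adjusted p up to 0.80), among them without osteogenic day 7 vehicle replicate 2, day 15 vehicle replicate 2 or day 15 VD3 replicate 1 (adjusted p = 0.0502 to 0.0752). Among the 9 genes these tests called 2 for adipogenic against osteogenic day 7, 1 for adipogenic day 7 against day 0 and 1 for osteogenic day 15 against day 7, where 1.82%, 3.47% and 0.185% of all genes were called.

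Acsl4 at day 0 measured 47.2, 49.0 and 47.3 RPKM with VD3 and 31.2, 31.5 and 33.2 RPKM with vehicle (1.50-fold, log2 0.57 ± 0.08 SE, limma adjusted p = 2.3e-05), a call that held in all 16 alternatives. The low-background VD3 replicate 2 was the highest, at 49.0 RPKM. In the other states VD3 libraries averaged 63.2 ± 4.66, 71.6 ± 5.94 and 37.0 ± 1.58 RPKM on osteogenic days 7 and 15 and adipogenic day 7, and vehicle libraries 58.1 ± 4.21, 61.0 ± 2.76 and 32.4 ± 2.16 RPKM (SD, n = 3), with log2 differences of 0.12, 0.22 and 0.19 that did not pass. VD3 and vehicle libraries overlapped on osteogenic day 7. They did not on osteogenic day 15 or adipogenic day 7 (limma unadjusted p = 0.0096 and 0.026). The effect was smaller on osteogenic day 7 than at day 0 (-0.45 ± 0.11 SE, adjusted p = 0.036), the 1 of 9 genes called for that difference, where 2.55% of all genes were called. That call was lost with plain empirical Bayes (adjusted p = 0.064) and without any one of 5 libraries (day 0 vehicle replicates 1 and 2, day 0 VD3 replicate 2, osteogenic vehicle replicate 2 and osteogenic VD3 replicate 1; adjusted p = 0.069 to 0.099).

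Fabp5 on osteogenic day 7 measured 26.5, 37.8 and 25.9 RPKM with VD3 and 67.0, 51.1 and 45.6 RPKM with vehicle, with no overlap (1.82-fold lower, log2 -0.84 ± 0.18 SE, limma adjusted p = 0.0057). Without vehicle replicate 1 the adjusted p was 0.051. On day 15 the groups did not overlap either, at 26.1, 38.6 and 25.3 RPKM with VD3 and 40.5, 41.2 and 49.7 RPKM with vehicle, and the difference did not pass (-0.55 ± 0.18 SE, adjusted p = 0.35). In adipogenic cells VD3 libraries had 1544, 1973 and 2169 RPKM and vehicle libraries 1949, 1615 and 1449.8 RPKM, which overlapped (0.18 ± 0.18 SE, adjusted p = 1). The difference between the adipogenic and osteogenic day 7 effects was 1.02 ± 0.26 SE (adjusted p = 0.043). It was lost without any one of 8 libraries: osteogenic vehicle replicates 1 and 2, osteogenic VD3 replicates 1 and 3, or replicates 2 and 3 of either adipogenic group (adjusted p = 0.072 to 0.14).

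Slc27a1 on osteogenic day 7 had 6.35, 4.62 and 5.25 RPKM with VD3 and 2.58, 3.30 and 3.47 RPKM with vehicle (1.73-fold, log2 0.64 ± 0.14 SE, limma adjusted p = 0.0082). The groups did not overlap, and without VD3 replicate 1 or vehicle replicate 1 the adjusted p was 0.065 and 0.064. The call was also lost after median-ratio rescaling (adjusted p = 0.066), with quantile normalization (0.26), with background subtracted (0.44) and with only the libraries compared (0.075). At day 0 Slc27a1 did not pass (0.25, adjusted p = 0.22) except with quantile normalization (0.70, adjusted p = 0.029). Fabp4 at day 0 was at 37.6, 42.7 and 29.7 RPKM with VD3 and 38.9, 56.2 and 57.7 RPKM with vehicle, and did not pass (-0.46 ± 0.18 SE, adjusted p = 0.081) unless vehicle replicate 1 was left out (-0.64, adjusted p = 0.029). In adipogenic cells Fabp4 averaged 20617 ± 1513 RPKM with VD3 and 22526 ± 902 RPKM with vehicle (SD, n = 3), without overlap, and did not pass (-0.13 ± 0.18 SE, adjusted p = 1). Cd36 and Acsl1 had overlapping VD3 and vehicle libraries in each of the 4 states. Without VD3 replicate 1 the Cd36 difference at day 0 passed (-0.79, adjusted p = 0.013), at levels under the receptor background. Fabp3 overlapped between VD3 and vehicle libraries in every state, and Slc27a4 in all but adipogenic cells (8.28 ± 0.762 RPKM with VD3 and 7.00 ± 0.675 RPKM with vehicle, SD, n = 3; log2 0.21, adjusted p = 0.94); neither passed in any state.

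Averaged over the 4 states, VD3 raised 3 genes and lowered 1 of 9, where 9.24% of all genes changed (4.29% higher and 4.95% lower). The average differences were 0.36 ± 0.04 SE for Lpl (limma adjusted p = 8.0e-07), 0.27 ± 0.04 SE for Acsl4 (adjusted p = 2.6e-05), 0.29 ± 0.07 SE for Slc27a1 (adjusted p = 0.0095, or 0.19 with background subtracted) and -0.31 ± 0.09 SE for Fabp5 (adjusted p = 0.030). For Lpl the average spans states whose effects differed. The same holds for Acsl4 and Fabp5, by calls that were lost under several alternatives. The Fabp5 effect was -0.04 at day 0 and 0.18 in adipogenic cells, against -0.84 and -0.55 on osteogenic days 7 and 15. The Fabp5 average passed in 21 of 34 alternatives. It was lost (adjusted p = 0.054 to 0.064) without any one of 11 libraries: vehicle replicates 1 and 3 and VD3 replicate 3 at day 0, vehicle replicate 1 and VD3 replicates 1 and 3 on osteogenic day 7, vehicle replicate 3 and VD3 replicates 1 and 3 on osteogenic day 15, and replicate 1 of either adipogenic group.

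**Figure D5:**
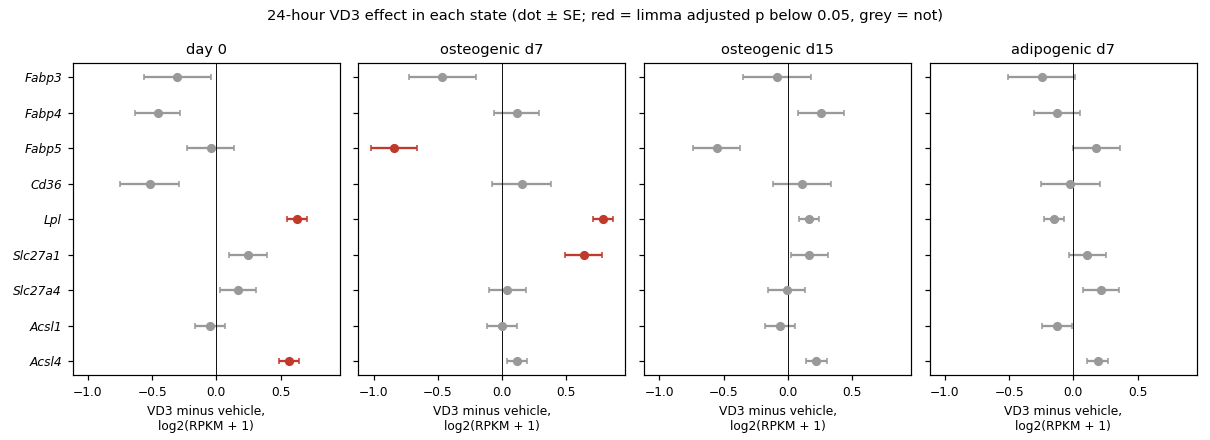
VD3 minus vehicle on the log2(RPKM + 1) scale for the 9 tested genes in each state (dots, with SE bars; red where limma's adjusted p was under 0.05). Lpl passes at day 0 and osteogenic day 7, Acsl4 at day 0, and Slc27a1 and Fabp5 on osteogenic day 7; on osteogenic day 15 and adipogenic day 7 none pass.

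Other genes of fatty acid and lipoprotein uptake, trafficking and activation, 40 of 45 tested, gave a mixed picture. On adipogenic day 7, 19 rose and 14 fell against day 0, where 13.2% of all genes rose and 65.5% fell. The median of the 40 differences was 0.14, against -0.83 over all tested genes. Apoc3, an apolipoprotein that inhibits Lpl, was at 25.5 ± 2.72 RPKM in adipogenic cells and 0.404 ± 0.356 RPKM at day 0 (SD, n = 3). Angptl4, a secreted Lpl inhibitor, was at 118 ± 2.50 and 16.9 ± 2.44 RPKM (log2 2.73 ± 0.10 SE, limma adjusted p = 3.5e-16), and the caveolar protein Cav2 at 295 ± 20.3 and 37.8 ± 4.70 RPKM. The lipoprotein receptor Lrp1 fell to 28.6 ± 2.91 RPKM, against 80.5 ± 6.45 RPKM at day 0, and the synthetase Acsl3 to 30.4 ± 2.55 RPKM, against 41.3 ± 1.14 RPKM at day 0. The Acsl3 difference of -0.44, less than the median shift of all genes, was 0.18 after median-ratio rescaling and did not pass. Gpihbp1, which anchors Lpl on capillary endothelium, was between 0 and 1.14 RPKM in all 24 libraries and was not tested.

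Against osteogenic day 7, 18 of the 40 were higher in adipogenic cells and 9 lower, where 12.4% of all genes were higher and 25.4% lower. The mitochondrial thioesterase Acot2 averaged 136 ± 9.73 RPKM in adipogenic and 13.3 ± 1.71 RPKM in osteogenic cells (SD, n = 3), though its close paralog Acot1 may share reads with it. Cav1, the main structural protein of caveolae, was lower in adipogenic cells, at 16.8 ± 1.15 RPKM against 36.5 ± 2.78 RPKM in osteogenic cells (log2 -1.07 ± 0.17 SE, limma adjusted p = 1.1e-05). In osteogenic medium 9 of the 40 rose and 13 fell on day 7, and 8 rose and 16 fell on day 15, against day 0. Of all genes, 13.6% rose and 50.4% fell on day 7, and 17.5% rose and 53.4% fell on day 15. Cav1 was at 36.5 ± 2.78 RPKM on day 7 and 53.6 ± 3.41 RPKM on day 15, against 9.80 ± 1.85 RPKM at day 0. Acbd3, a Golgi protein with an acyl-CoA-binding domain, rose on both days, and the caveolar coat gene Ptrf fell on both (-0.42 and -0.60) by about as much as the median gene. The Ptrf difference on day 7 was 0.0048 after median-ratio rescaling and did not pass without day 0 replicate 2 or 3 or osteogenic replicate 1 or 2 (adjusted p = 0.062 to 0.10). Between osteogenic days 15 and 7, 3 were higher and 6 lower, where 6.87% of all genes were higher and 6.47% lower. The lipoprotein receptor Vldlr was at 14.7 ± 2.12 RPKM on day 15 and 5.37 ± 0.192 RPKM on day 7.

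VD3 changed 7 of the 40 at day 0 (1 higher and 6 lower), where 15% of all genes changed. On osteogenic day 7 it changed 3 (1 higher and 2 lower), where 5.26% changed. In both states the count was close to the share of all genes. Cav2 fell in both, to 22.2 ± 0.917 RPKM with VD3 against 37.8 ± 4.70 RPKM with vehicle at day 0, and to 53.6 ± 2.73 RPKM with VD3 against 100.9 ± 16.7 RPKM with vehicle on osteogenic day 7. Cav1 fell in both as well, by 0.74 and 0.62 on the log2 scale. Lrp1 was the gene that rose on osteogenic day 7 (0.34 ± 0.09 SE, limma adjusted p = 0.035). At day 0 Angptl4, Scarb1, Acot2 and Fabp1 also fell and Crabp2 rose, with Fabp1 and Crabp2 under the receptor background in vehicle libraries. All tested genes had a median VD3 difference of -0.27 at day 0. After median-ratio rescaling Angptl4 (-0.15), Scarb1 (-0.25) and Acot2 (-0.28) no longer passed, nor did Lrp1 on osteogenic day 7 (0.22). On osteogenic day 7 Cav1 was lost without vehicle replicate 2 or 3 or VD3 replicate 3 (adjusted p = 0.077 to 0.15), and Lrp1 without any one library but vehicle replicate 3 (adjusted p = 0.057 to 0.22). At day 0 the calls for Angptl4, Fabp1 and Crabp2 were lost without vehicle replicate 2 or VD3 replicate 2, that for Fabp1 also without vehicle replicate 1 and that for Crabp2 also without vehicle replicate 3 (adjusted p = 0.059 to 0.23). On osteogenic day 15 and adipogenic day 7, 0 of the 40 passed with limma, where 0.773% and 2.08% of all genes changed. Unadjusted p was under 0.05 for 5 and 4 of the 40.

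Genes whose 8 group means followed each member most closely were named by Pearson's r of log2(RPKM + 1) among 4049 genes of at least 20 RPKM in their highest group. These are descriptions over 8 points that share libraries and depth. The closest were Pparg for Lpl (r = 0.992), Slc2a4 for Cd36 (r = 0.9995), Prdx1 for Fabp4 (r = 0.999), Ankrd57 for Fabp5 (r = 0.994), Prkd3 for Fabp3 (r = 0.998), Dnajb2 for Slc27a1 (r = 0.979), D17Wsu92e for Slc27a4 (r = 0.982), Cmbl for Acsl1 (r = 0.9995) and Tmem184c for Acsl4 (r = 0.984). Such values were common: 380 candidates reached 0.95 with Cd36 and 323 with Fabp4, against 65 with Lpl, 21 with Acsl4 and 5 with Slc27a4. Among the members themselves, Cd36 and Acsl1 were closest to each other (r = 0.9986) and Fabp3 and Fabp4 ran opposite (r = -0.97).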

How the data were processed

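RNA was isolated with TRI-Reagent followed by lithium chloride, DNase-treated and RiboMinus-depleted, and sequenced as directional ScriptSeq libraries, per the labels' protocols. TopHat was the aligner and mm9 the genome build, per the submitters' processing notes, which name no TopHat version. The counting tool, annotation and filters are not given in the sources used here. The authors deposited RPKM values, 1 per transcript, for 30795 transcripts in each of 24 libraries.

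Transcripts were summed by symbol (3463 symbols had several). After removal of 40 transcripts whose symbols had become dates, 25385 genes remained. Depth was estimated in each library from the steps between 150 low values of olfactory receptor genes, and 87.3 to 99.3% of these came within 0.1 of whole reads. Pearson's r between libraries within a group was 0.926 to 0.993, and 0 pairs held identical values. The 21097 genes that reached 1 RPKM in 3 or more libraries were tested as log2(RPKM + 1) in R 4.3.3 with limma 3.58.1. The linear model had the 8 groups over 24 libraries, trend and robust empirical Bayes, and Benjamini-Hochberg adjustment within each of 14 comparisons. The test was checked on simulated data with independent noise around each gene's mean. That simulation had no shift shared by the genes of a library, so it does not cover the day 0 background. Tables and figures used Python 3.11.15 with pandas 2.3.3, numpy 2.4.6 and matplotlib 3.10.9.

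Of the 10 members 9 were tested in every comparison, and Slc27a3 is given by its range. Other genes come from a list of 45: in each comparison of states the 3 called with the largest rise and the 3 with the largest fall (minimum 5 RPKM in the higher group), and those called for VD3, some of them only counted. For each member the 2 closest genes by pattern were computed and the first is named. Members, lists and tests were chosen with earlier results of these data known.

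Alternatives changed the pseudocount (0.1), the filter (none, or 5 RPKM), the scaling (median ratio or quantile), the receptor background (subtracted), the transcripts (largest only), the model (replicate term, plain empirical Bayes, or fitted on the groups compared alone) or the libraries (VD3-treated for vehicle, or each left out in turn). Chosen after seeing the data were VD3-treated libraries with replicate 2 alone standing for day 0, the VD3 average without day 0, and shares within whole gene families. A group reduced to 1 library takes its spread from the other groups.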

Additional observations from a re-analysis of the deposited data

Results flagged for a closer look

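The effect of VD3 on 3 of the 10 genes differed between states by a direct test of the difference in limma. For Lpl the effect on the log2 scale was 0.94 smaller on adipogenic than on osteogenic day 7 (difference -0.94, adjusted p = 2.9e-05), 0.78 smaller on adipogenic day 7 than at day 0 (-0.78, adjusted p = 0.00019) and 0.62 smaller on osteogenic day 15 than on day 7 (-0.62, adjusted p = 0.020). For Acsl4 it was smaller on osteogenic day 7 than at day 0 (-0.45, adjusted p = 0.036). For Fabp5 it was higher on adipogenic than on osteogenic day 7 (1.02, adjusted p = 0.043). The Fabp5 call held in 9 of 22 alternatives. The Acsl4 call and the Lpl call for osteogenic day 15 against day 7 each held in 15 of 22. Of all genes, 1.82% were called for adipogenic against osteogenic day 7 and 3.47% for adipogenic day 7 against day 0. The shares were 0.185% for osteogenic day 15 against day 7 and 2.55% for osteogenic day 7 against day 0.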

How the results depend on the processing

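Of the members' values recomputed under other settings, 2255 kept direction and side of the threshold, 99 changed sign without passing before or after, 80 lost a call, 17 gained one in the same direction, and 10 turned in direction with a call before or after; the causes were not tested. Against day 0 on osteogenic day 7, subtracting the background moved Acsl1 to 0.70, which passed as higher, and Cd36 was 0.17 with quantile normalization, 0.18 with background subtracted and 0.47 with the lone day 0 library, where 4 genes passed instead of 7. On osteogenic day 15, Acsl1 was 0.27 with background subtracted, Cd36 0.15 with the lone day 0 library, and Slc27a4 0.78 with quantile normalization and 1.73 with background subtracted, which both passed as higher. On adipogenic day 7 Acsl4 was -0.36 between VD3-treated libraries and -0.40 with the lone day 0 library. Between osteogenic days 15 and 7, 3 genes passed after median-ratio rescaling, 2 with quantile normalization and 2 with background subtracted, instead of 5, and 2 to 5 without 1 library. With 1 library left out, VD3 on osteogenic day 7 called 1 to 3 genes. For differences of VD3 effects, osteogenic day 7 against day 0 called 0 with plain empirical Bayes and with only the libraries compared, and 0 to 2 without 1 library. Osteogenic day 15 against day 7 called 0 after median-ratio rescaling, with background subtracted, with plain empirical Bayes and with only the libraries compared, and 0 to 1 without 1 library. Adipogenic day 7 against day 0 called 2 with a filter at 5 RPKM, quantile normalization or background subtracted, and 1 to 2 without 1 library. Adipogenic against osteogenic day 7 called 1 after median-ratio rescaling, with quantile normalization, plain empirical Bayes or only the libraries compared, and 1 to 2 without 1 library. With the replicate block that comparison also called 1. Leaving out 1 library added calls for differences between VD3 effects: Cd36 (0.95) and Fabp5 (-0.97) for osteogenic day 7 against day 0, without day 0 VD3 replicate 1 and osteogenic VD3 replicate 2, and Acsl4 (-0.39) for adipogenic day 7 against day 0, without day 0 VD3 replicate 1. The numbers do not pair the libraries (correlations of same-numbered libraries -0.35 to 0.44, and in 0 of 28 group pairs all above 0.1), and the block moved no other count of members by over 1.5 times. Of 39 calls among the other pathway genes, 23 passed in the same direction in every alternative, and 2 genes of the rest turned besides Acsl3 on adipogenic day 7 (0.18 after median-ratio rescaling). On osteogenic day 7 Acot1 was 0.0148 with quantile normalization, 0.86 with background subtracted, 0.16 between VD3-treated libraries and 0.0269 with the lone day 0 library, and Ptrf was 0.0048 after median-ratio rescaling; on day 15 Ptrf was 0.0002 between VD3-treated libraries. Over all genes, the share of changed genes that were higher moved with scaling. On osteogenic day 7 against day 0 it was 21.3% as reported, 43.4% after median-ratio rescaling, 59.4% with quantile normalization and 85.7% with background subtracted. The same shares were 24.7, 40.9, 58.6 and 82.7% for osteogenic day 15 against day 0, 16.7, 36.4, 51.0 and 63.7% for adipogenic day 7 against day 0, and 26.5, 64.1, 57.7 and 68.4% for VD3 at day 0. The share of genes called ranged over the alternatives between 14.3 and 74.3% on osteogenic day 7 against day 0, 25.0 and 75.4% on osteogenic day 15, 39.4 and 80.6% on adipogenic day 7, 31.7 and 67.5% for adipogenic against osteogenic day 7, and 5.62 and 32.8% for VD3 at day 0. In the 5 day 0 libraries with high receptor medians, levels under 3.39 to 4.93 RPKM lie within that background and were not read as expression. The VD3 average has no separate fit of only the libraries compared, since it uses all 24.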
